A study of Mus musculus with 12 samples.

Results

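The genes described here are 7 transcription factor genes of the neural lineage, Sox1, Pax3, Pax6, En2, Olig1, Olig2 and Neurod1, followed by ATAC-seq while mouse fibroblasts were converted to pluripotent cells. ATAC-seq reads mark open DNA, where the Tn5 transposase can insert sequencing adapters. Each gene was represented by every counted region that overlaps its mm10 span or lies within 10 kb of either end, taken singly and summed per gene. This gave 23 of the 115000 counted regions, for 7 of the 18088 protein-coding genes that had a region. The 4 groups held 3 libraries each: mouse embryonic fibroblasts (MEF), Stage 1 cells at day 6, Stage 2 cells after 4 further days, and induced pluripotent stem cells (iPSC). All were of a mixed C57BL/6 and 129 background. MEF are labelled unsorted, while Stage 1, Stage 2 and iPSC all carry the marker Oct4-GFP+, a fluorescent readout of the pluripotency gene Oct4. The protocol is named 3c enhanced reprogramming. What 3c stands for, how reprogramming factors were delivered and how many clones the iPSC represent are not stated in the labels.

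The members act at different points of neural development. Sox1, a SoxB1 factor, is among the first genes switched on in the neural plate. Pax6 patterns the forebrain and eye, Pax3 marks the dorsal neural tube and neural crest as well as muscle progenitors, and En2 marks the border of midbrain and hindbrain. Olig2 directs motor neuron and oligodendrocyte progenitors, its neighbour Olig1 acts in oligodendrocyte maturation, and Neurod1 drives neuronal differentiation and also acts in the endocrine pancreas. In pluripotent cells such genes are known to be held silent by Polycomb proteins, often at CpG-rich promoters. Accessibility near a gene is not its expression, and none of the values below measures RNA.

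The count regions held from 1034936 to 6261903 reads per library, of 14310290 to 32229388 reads in all. The share of a library's reads that lay in regions was 11.3% to 22.1% for MEF, whereas Stage 1 libraries had 7.36% to 8.12%, Stage 2 libraries 5.31% to 6.91% and iPSC libraries 4.50% to 5.25%. In Stage 1 against MEF 11 of 12 pluripotency marker genes were called higher and 11 of 12 fibroblast marker genes lower, where 32.9% of all genes were called higher and 32% lower. The summed level of the fibroblast markers, in CPM (read counts scaled to the reads in regions of each library), ranged over 1298 to 1422 (MEF), 537 to 598 (Stage 1), 557 to 629 (Stage 2) and 700 to 747 (iPSC), so iPSC lay above both stages. Pluripotency markers ranged over 369 to 371 (MEF), 1249 to 1291 (Stage 1), 1461 to 1566 (Stage 2) and 1242 to 1393 (iPSC), with Stage 2 highest. Marker genes of neurons and glia were called higher in 3 and lower in 2 of 7 cases in Stage 1 against MEF. When scaled to all reads of a library they were called in 0 and 4, where 7.53% of all genes were called higher and 69.8% lower. Their summed level was 515 to 576 CPM in Stage 1, above the 423 to 443 (MEF), 411 to 430 (Stage 2) and 415 to 461 (iPSC) of the other groups. The summed level of blood markers was 266 to 269 CPM in Stage 1, against 169 to 175 CPM in MEF, and that of endothelial markers 149 to 177 CPM, against 272 to 281 CPM. The part that other cell types have in the values below was not tested.

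The promoters of Sox1, Olig2 and Neurod1 are shown because a counted region covers each of them whole, and the covering region was called higher in Stage 1 than in MEF for each of them. The sequences are those of RefSeq for GRCm38.p6, which is mm10, running from 250 bases before the annotated start to 50 after it, and 4 of the 7 members had an entry. Capitals mark every match, on either strand, to the GC box GGGCGG, the SOX core CATTGT and the POU octamer ATGCAAAT. The windows lie at chr8:12395269-12395568 on the plus strand (Sox1), chr16:91225300-91225599 on the plus strand (Olig2) and chr2:79456587-79456886 on the minus strand (Neurod1), and each is written 5′ to 3′ along its gene.
Sox1: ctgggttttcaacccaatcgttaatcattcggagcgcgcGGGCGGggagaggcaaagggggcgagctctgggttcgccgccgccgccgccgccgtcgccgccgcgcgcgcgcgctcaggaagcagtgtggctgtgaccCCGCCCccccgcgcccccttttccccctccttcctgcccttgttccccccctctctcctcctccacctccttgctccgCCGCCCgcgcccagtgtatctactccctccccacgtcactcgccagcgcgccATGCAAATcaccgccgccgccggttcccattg
Olig2: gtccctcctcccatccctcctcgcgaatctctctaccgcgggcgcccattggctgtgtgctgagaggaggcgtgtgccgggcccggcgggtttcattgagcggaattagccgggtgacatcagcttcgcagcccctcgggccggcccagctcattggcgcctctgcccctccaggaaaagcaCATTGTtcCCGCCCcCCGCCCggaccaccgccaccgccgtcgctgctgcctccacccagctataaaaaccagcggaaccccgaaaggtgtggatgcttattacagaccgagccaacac
Neurod1: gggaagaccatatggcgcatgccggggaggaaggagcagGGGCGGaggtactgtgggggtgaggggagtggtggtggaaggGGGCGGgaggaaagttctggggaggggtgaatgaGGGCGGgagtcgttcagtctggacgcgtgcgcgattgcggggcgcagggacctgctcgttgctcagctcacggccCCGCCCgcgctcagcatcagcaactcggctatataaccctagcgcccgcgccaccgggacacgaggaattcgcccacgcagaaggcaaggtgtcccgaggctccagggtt
These windows are rich in CpG. They hold 37 CpG dinucleotides in Sox1, 25 in Olig2 and 26 in Neurod1, against a median of 13 over 21263 promoters of protein-coding genes. The first annotated Pax6 promoter holds 18. GC boxes number 3 in Sox1, 2 in Olig2 and 4 in Neurod1, and 46.2% of all promoters have at least 1. The octamer stands once in the Sox1 promoter, and 1.66% of all promoters hold it. The SOX core stands once in the Olig2 promoter, and 2339 of the 21263 promoters hold it. A match describes letters in this window and is not a bound site.

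The members differed in how many regions they had. Pax6 had 8 regions, Pax3 5, Sox1 3, Olig1, Olig2 and Neurod1 2 each, and En2 a single one, 4261 bp beyond the upper end of the gene (chr5:28176451-28177000). Pax3, Pax6 and En2 had no region over either end of the gene, and the nearest Pax6 region lay 46 bp outside the lower end. The region lists that the authors gave for each stage held few of the 23 regions for MEF (7) and Stage 1 (9), and more for Stage 2 (17) and iPSC (13). Over all 115000 regions the MEF list was the longest, with 74.8% of them, and the lists of Stage 1 (31.6%), Stage 2 (32.2%) and iPSC (24.4%) were shorter. Of the 23 regions, 4 were in the MEF list alone (2 of Pax3, 1 of Pax6, 1 of Olig1), 3 were in all 4 lists (2 of Pax6, 1 of Neurod1), and 16 were in 1 or more later lists and not in that of MEF. A region was defined from intervals found in these same libraries, so a high count in the stage that lists it is partly how it was chosen. No region was linked to a second protein-coding gene except Pax6 regions 7 and 8, which also lie near Elp4.

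Between MEF and day 6, accessibility rose near 5 of the 7 genes: Sox1, Pax6, En2, Olig2 and Neurod1. Pax3 and Olig1 did not pass the test. Values are CPM with TMM scaling, summed over the regions of a gene, and a call is an adjusted p under 0.05 in the edgeR quasi-likelihood test over 17507 genes. Of all genes tested 32.9% were called higher in Stage 1 and 32% lower. The median log2 fold change was 1.87 over the 7 members and 0.00 over all genes. On this scale no member was lower at an unadjusted p under 0.05 in any of the comparisons between consecutive groups or between the end points, and DESeq2 called none lower either. With scaling to all reads of a library edgeR called Pax3 lower against MEF in Stage 1 (adjusted p = 0.00302) and in iPSC (0.000719). Of all genes 69.8% and 86.5% were called lower there. More cells with an open region and more reads per cell cannot be told apart in these bulk libraries.

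**Figure D1:**
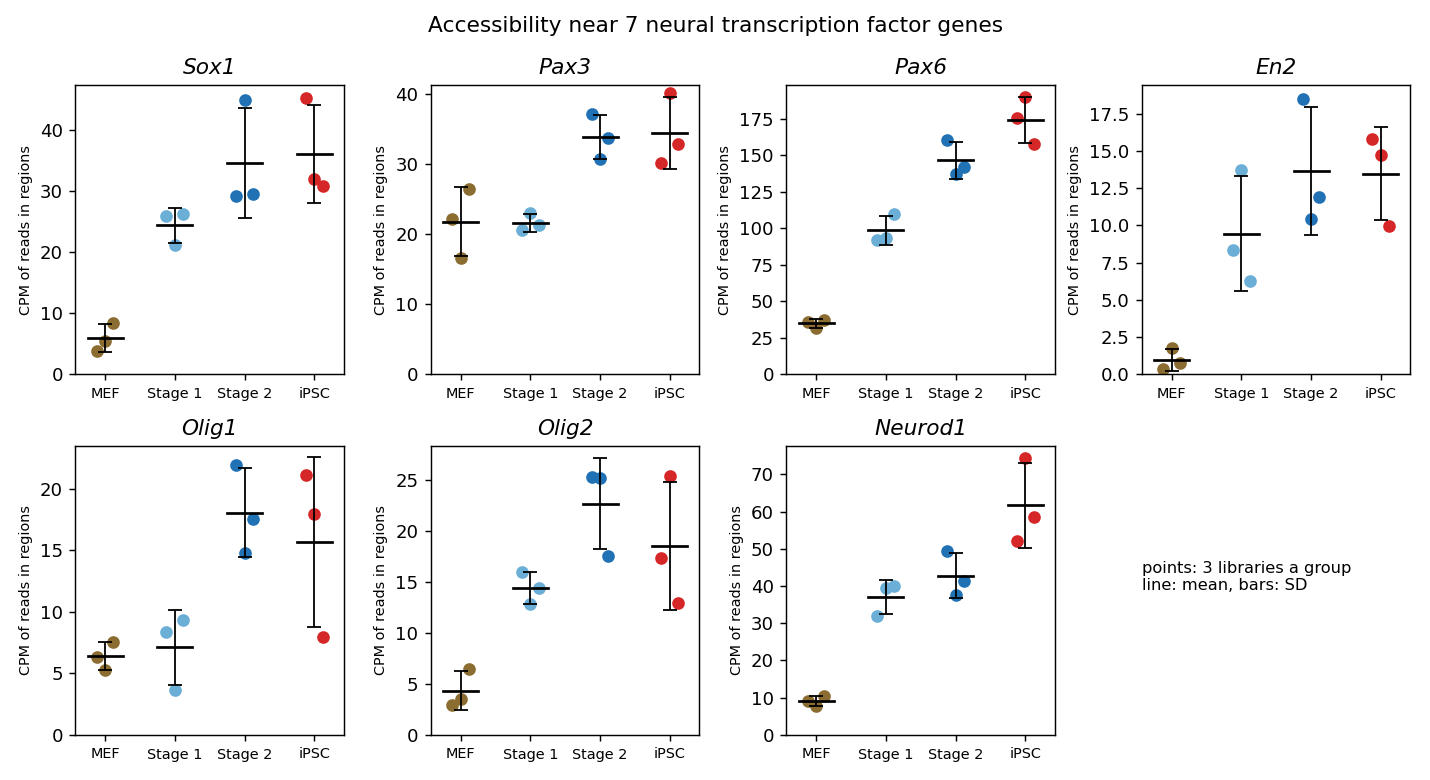
Level of each gene in CPM of reads in regions (vertical axis, from 0) in MEF, Stage 1, Stage 2 and iPSC. Points are the 3 libraries of a group, lines are means and bars are SD. Sox1, Pax6, En2, Olig2 and Neurod1 lie higher in every Stage 1 library than in every MEF library, whereas Pax3 and Olig1 overlap between these groups and lie higher in Stage 2. In Stage 1 against MEF 32.9% of all genes were called higher, and how many of all genes separate by library was not counted.

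Sox1 had 25.8, 21.1 and 26.2 CPM in the Stage 1 libraries, against 3.78, 5.48 and 8.30 CPM in MEF. Every Stage 1 library lay above every MEF library, and the log2 fold change was 2.18 ± 0.25 (SE, adjusted p = 7.72e-12). In Stage 2 Sox1 stood at 29.2, 44.9 and 29.4 CPM and in iPSC at 45.2, 31.9 and 30.8 CPM. These later groups overlapped each other and lay above Stage 1, but neither step passed the test (Stage 2 against Stage 1 0.49 ± 0.22, adjusted p = 0.112; iPSC against Stage 2 0.08 ± 0.20, adjusted p = 0.866). The promoter region shown above (Sox1 region 2, chr8:12395101-12395800) held 17, 15 and 25 reads in Stage 1, against 8, 11 and 14 in the MEF libraries, which had more reads in regions. Its log2 fold change was 2.27 ± 0.35 (adjusted p = 7.74e-09), and the regions upstream and downstream of the gene were called higher too (adjusted p = 0.00144 and 0.00365).

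Neurod1 was called higher at both ends of the series, but the later call depended on the setting. It had 31.9, 39.4 and 40.0 CPM in Stage 1, against 9.11, 7.82 and 10.5 CPM in MEF, without overlap (log2 fold change 2.05 ± 0.20, adjusted p = 4.45e-15). Stage 2 libraries stood at 49.4, 37.5 and 41.4 CPM, overlapping Stage 1 (0.21 ± 0.18, adjusted p = 0.456). In iPSC it had 52.0, 74.4 and 58.6 CPM, above all Stage 2 libraries. That last step, of 0.52 ± 0.16, passed the test (adjusted p = 0.0321), and it was the single member called between Stage 2 and iPSC. The call was lost without iPSC replicate 2 (adjusted p = 0.306), iPSC replicate 3 (0.0672), Stage 2 replicate 2 (0.159) or Stage 2 replicate 3 (0.0796), and in DESeq2. It was also lost with libraries thinned to equal depth (0.0615), with regions of 1 gene only (0.1035) and with scaling to all reads (0.734). Neither Neurod1 region was called in that step on its own. In MEF its regions stood at different levels, 5.12 times the expected background in region 1 and 1.32 times in region 2. Region 1, inside the gene (chr2:79454001-79454700), was in all 4 stage lists and held 20, 26 and 41 reads in Stage 1, against 42, 35 and 20 in MEF, with a log2 fold change of 1.37 ± 0.24 (adjusted p = 4.16e-07). Region 2, over the promoter shown above (chr2:79456451-79457150), was not in the MEF list. It held 22, 17 and 23 reads in Stage 1, against 11, 5 and 9 in MEF (2.80 ± 0.35, adjusted p = 1.24e-11).

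Olig2 had 15.9, 12.8 and 14.4 CPM in Stage 1, against 2.92, 3.52 and 6.499 CPM in MEF, with no overlap. The log2 fold change was 1.87 ± 0.31 (adjusted p = 2.70e-07). Stage 2 libraries had 25.3, 25.2 and 17.5 CPM and lay above those of Stage 1, yet the difference of 0.66 ± 0.27 did not pass (adjusted p = 0.0784). It passed without MEF replicate 1 (0.0494) and in a fit of Stage 1 and Stage 2 alone (0.0491). In iPSC the values spread over 17.3, 25.3 and 12.9 CPM, across the range of both earlier stages. The promoter region (Olig2 region 1, chr16:91225101-91225650) had a log2 fold change of 1.77 ± 0.34 in Stage 1 against MEF (adjusted p = 2.71e-06). The small region inside the gene (region 2, 250 bp) had 1.15 ± 0.63 on 11 reads in Stage 1 and 14 in MEF, and did not pass (adjusted p = 0.0886), but it passed without the filter on low counts (0.0179) and in DESeq2 (0.0442).

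Olig1, whose gene lies beside Olig2 on chromosome 16, was not called by day 6. It had 8.36, 3.67 and 9.37 CPM in Stage 1, a range that spans the 6.36, 5.28 and 7.58 CPM of MEF (log2 fold change 0.26 ± 0.35, adjusted p = 0.530). A window of 2 kb, which leaves out region 1, gave 1.02 and a call (adjusted p = 0.0181). The 3 Stage 2 libraries stood at 21.9, 14.8 and 17.5 CPM, all above Stage 1, with a log2 fold change of 1.28 ± 0.33 (adjusted p = 0.00334) that passed with each library left out. In iPSC it had 21.1, 18.0 and 7.95 CPM, and the lowest library, with 8 reads over the gene, lay within the Stage 1 range. The sum joins regions with different courses. Region 1, 8569 bp beyond the lower end (chr16:91260851-91261200), held 1, 0 and 1 reads in Stage 1, against 16, 11 and 11 in MEF. Region 2, over the lower end of the gene (chr16:91269401-91269950), held 38, 23 and 22 reads in Stage 2 and 10, 4 and 14 in Stage 1 (1.29 ± 0.34, adjusted p = 0.00666). That region lost the call without Stage 1 replicate 2 (0.104), without Stage 2 replicate 1 (0.105) and in DESeq2 (0.0809). Against MEF region 2 missed the threshold in Stage 1 (0.78 ± 0.39, adjusted p = 0.0622). It passed without the filter (0.00292), in DESeq2 (0.0225), and without any single library other than MEF replicates 2 and 3 and Stage 1 replicates 1 and 3 (0.00870 to 0.0453). Whether the Stage 2 step differs between Olig1 and Olig2 was not tested.

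En2 rested on few reads. Its region held 11, 15 and 10 reads in Stage 1, against 2, 9 and 2 in MEF, or 8.36, 13.7 and 6.25 CPM against 0.344, 1.76 and 0.722 CPM. The libraries did not overlap, and the log2 fold change of the gene was 3.17 ± 0.47 (adjusted p = 1.37e-08). The MEF reads summed to 13 where 14.9 were expected from the read density outside the regions, a ratio of 0.874. The value was 4.11 without MEF replicate 2 and 2.63 without MEF replicate 1, and both were called. En2 had 18.5, 10.4 and 11.9 CPM in Stage 2 and 15.8, 14.7 and 9.94 CPM in iPSC, and the later groups overlapped Stage 1 and each other without a call (adjusted p = 0.226 and 0.991 for the consecutive steps). On its own, tested among 71069 regions, the same reads gave 2.95 ± 0.46, since the region table and the gene table were each scaled by their own TMM factors.

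Pax6 was the most finely sampled member, with 8 regions and 102 to 286 reads per library. It had 91.9, 93.5 and 109.9 CPM in Stage 1, against 35.8, 31.5 and 36.8 CPM in MEF (log2 fold change 1.52 ± 0.12, adjusted p = 5.17e-19). In Stage 2 it had 160.6, 137.0 and 141.6 CPM, above every Stage 1 library (0.57 ± 0.11, adjusted p = 0.000119). In iPSC it had 175.7, 189.6 and 158.0 CPM, overlapping Stage 2 (0.25 ± 0.10, adjusted p = 0.102). In CPM of reads in regions MEF, Stage 1 and Stage 2 thus formed 3 separate levels. With scaling to all reads of a library Stage 2 against Stage 1 gave 0.19 ± 0.26 and was not called (adjusted p = 0.633, edgeR). Stage 1 against MEF gave 0.56 ± 0.27 on that scale (adjusted p = 0.0473).

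**Figure D2:**
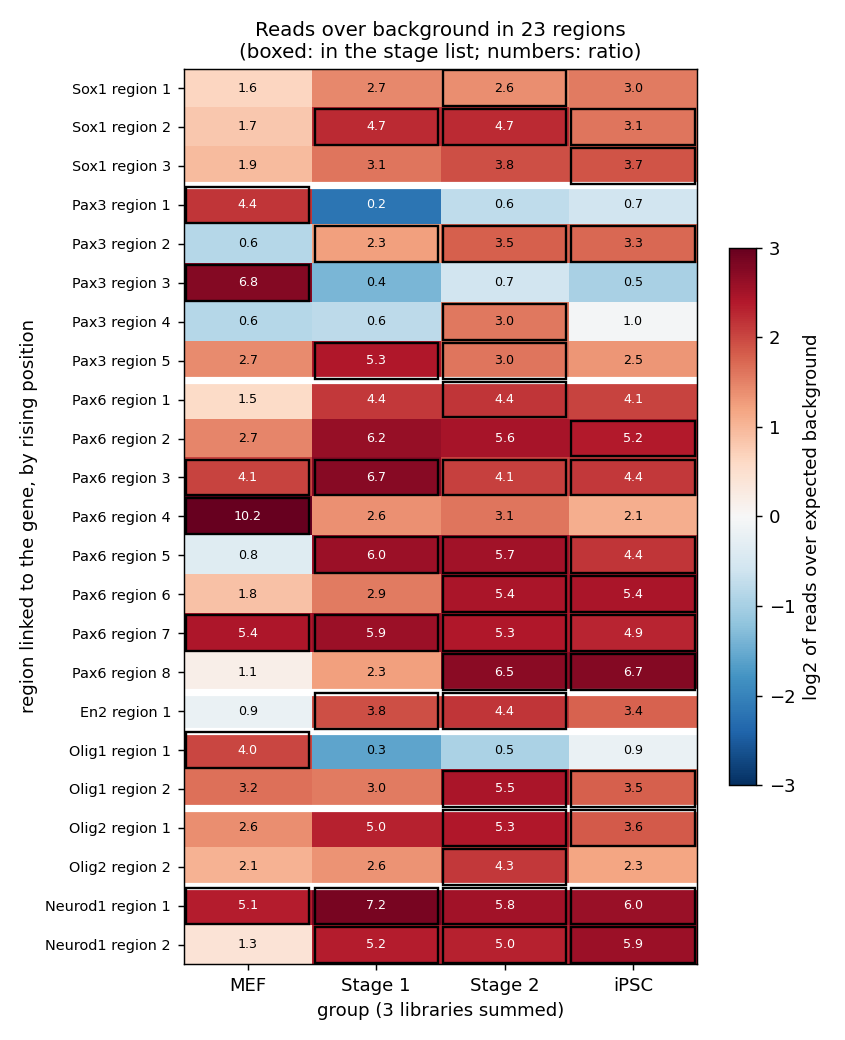
Reads over the expected background in each of the 23 regions (rows, by rising position within a gene) in each group (columns, 3 libraries summed), with the ratio printed, its log2 as colour, and a box where the list of that stage holds the region. Pax3 regions 1 and 3 and Olig1 region 1 stand at 4.39, 6.75 and 4.01 in MEF and below 1 in the other groups, and Pax6 region 4 stands at 10.2 in MEF.

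Within Pax6 the regions were called at different steps, and whether their courses differ from each other was not tested. The regions at the start of the gene (1 and 2) and region 5 in the gene body were called higher by Stage 1. Region 5 (chr2:105677301-105678150) held 23, 26 and 38 reads in Stage 1, against 5, 6 and 7 in MEF (3.75 ± 0.33, adjusted p = 4.52e-18), and in MEF it was at 0.783 of the expected background. Regions 8 and 6 rose again at Stage 2. Region 8 (chr2:105691101-105691750) held 52, 39 and 26 reads in Stage 2, against 10, 4 and 12 in Stage 1 (1.88 ± 0.31, adjusted p = 6.32e-06). Region 6 (chr2:105680201-105681050) held 48, 43 and 37 reads in Stage 2, against 14, 8 and 21 in Stage 1 (1.302 ± 0.27, adjusted p = 0.000356). Regions 3 and 7, in all 4 stage lists, were above the expected background in MEF already (4.09 and 5.36 times) and gave 1.58 ± 0.25 and 1.01 ± 0.28 in Stage 1 against MEF. Region 4, which follows region 3, went the other way. It held 11, 6 and 12 reads in Stage 1, against 82, 71 and 26 in MEF (-1.06 ± 0.30, adjusted p = 0.000918). This fall did not pass without the filter on low counts (adjusted p = 0.112), in DESeq2 (0.0949) or with libraries thinned to equal depth (0.409), and reached -1.80 with whole-library scaling. Region 4, Pax6 regions 1 and 7, Sox1 region 1, Pax3 regions 1, 3 and 4 and Olig1 region 1 are named after their values were seen.

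Pax3 held regions with opposite courses, and its sum did not pass the test by day 6. The gene had 20.5, 22.9 and 21.2 CPM in Stage 1, inside the 22.2, 16.6 and 26.4 CPM of MEF (log2 fold change 0.02 ± 0.20, adjusted p = 0.938). With a window of 2 kb, which leaves out region 1, it was called higher (0.56, adjusted p = 0.0177). Region 3, within the gene (chr1:78129001-78129750), held 0, 2 and 3 reads in Stage 1, against 72, 35 and 30 in MEF. Region 1, 7867 bp beyond the lower end (chr1:78092601-78093400), held 1 read in each Stage 1 library, against 38, 32 and 25 in MEF. Both were below the expected background in every later group. Region 2 (chr1:78119801-78120400) held 8, 6 and 10 reads in Stage 1, against 2, 2 and 5 in MEF (2.85 ± 0.54, adjusted p = 1.52e-06), and region 5 (chr1:78189351-78189900), the one nearest the upper end, gave 1.83 ± 0.33 (adjusted p = 6.57e-07). Region 4 (chr1:78143351-78143750), listed for Stage 2 alone, held 15, 7 and 11 reads in Stage 2, against 0, 1 and 3 in Stage 1, and 2, 5 and 3 in iPSC. Without the filter on low counts edgeR called its rise from Stage 1 to Stage 2 (2.63 ± 0.68, adjusted p = 0.00665). The fall from Stage 2 to iPSC was not called (-1.42 ± 0.55, adjusted p = 0.222), and iPSC was called above MEF (2.57 ± 0.77, adjusted p = 0.00233).

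As a sum Pax3 rose at Stage 2, where it had 37.1, 30.7 and 33.7 CPM, above all Stage 1 libraries (0.66 ± 0.21, adjusted p = 0.0205). The call was lost in DESeq2 (0.0838), without Stage 1 replicate 1 (0.0554) or 3 (0.0809) and without Stage 2 replicate 1 (0.0905). The iPSC libraries, at 30.2, 40.0 and 32.8 CPM, overlapped Stage 2 (0.02 ± 0.19, adjusted p = 0.969).

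**Figure D3:**
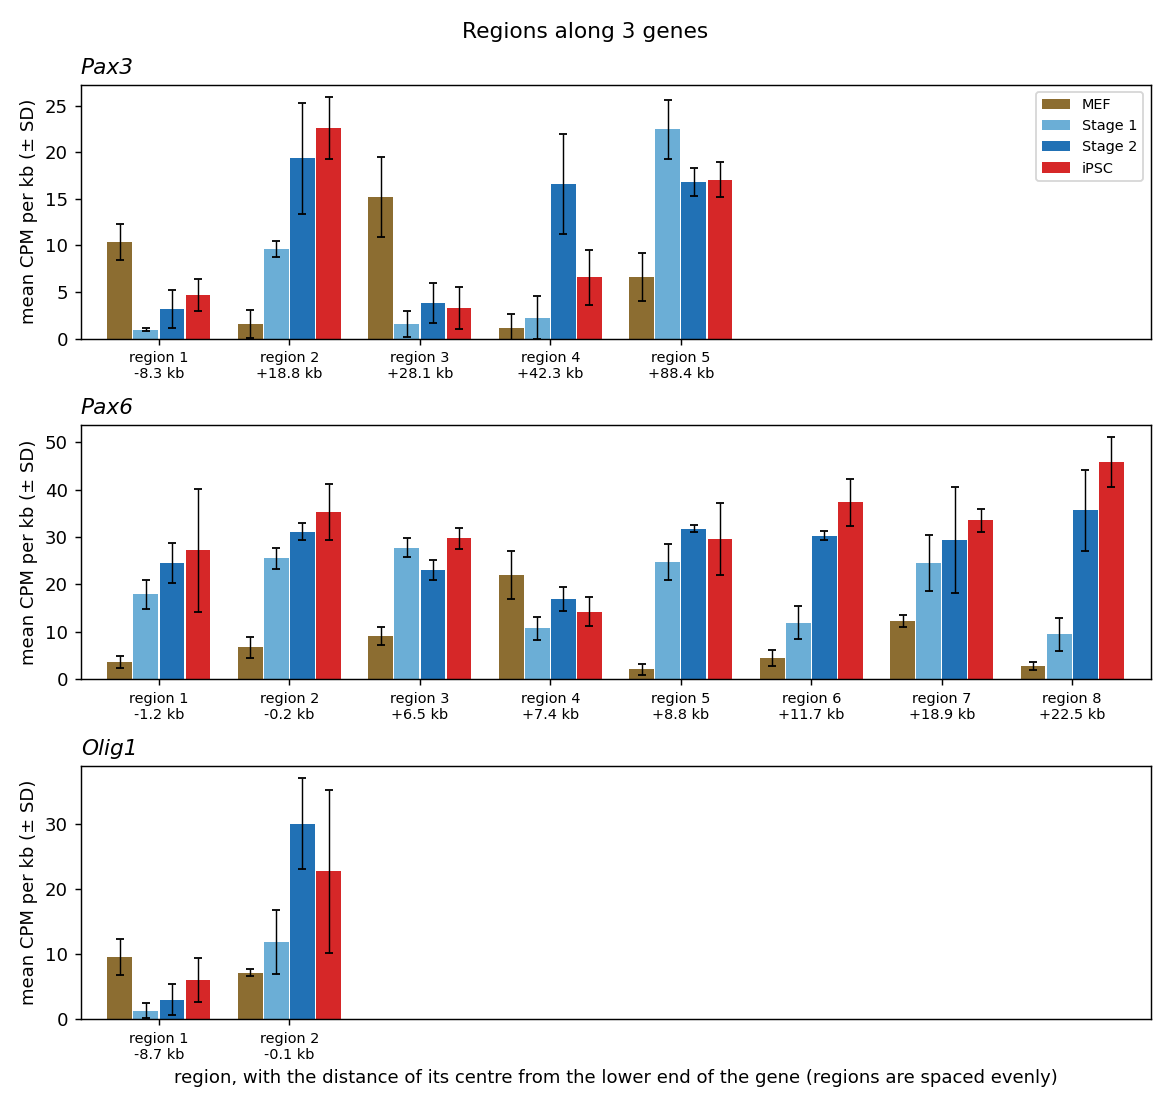
Mean level per kb of region (CPM per kb, bars from 0, error bars SD, 3 libraries each) in MEF, Stage 1, Stage 2 and iPSC along Pax3, Pax6 and Olig1, with the distance of each region's centre from the lower end of the gene. Pax3 regions 1 and 3, Pax6 region 4 and Olig1 region 1 have their tallest bar in MEF, and the other regions have it in a later group.

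The exchange of regions can be read without any scaling between libraries, as the share of a gene's reads that fell in its regions listed for MEF alone. For Pax3 MEF had a share of 79.8% ± 5.04, Stage 1 had 9.16% ± 4.72, Stage 2 had 16.9% ± 7.91 and iPSC had 19.7% ± 2.44 (SD, n = 3 each). For Pax6 MEF had 36.3% ± 9.68, Stage 1 had 7.26% ± 1.65, Stage 2 had 7.68% ± 0.65 and iPSC had 5.69% ± 0.72. For Olig1 it was 45.5% ± 6.13, 5.25% ± 4.71, 6.24% ± 5.05 and 18.8% ± 16.9 in the same order, on 4 to 39 reads per library. Each MEF library lay above each later library for all 3 genes. The regions were picked by the MEF list, so these shares are a description, chosen after the values were seen.

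Of the 23 regions 19 passed the filter on low counts. The 4 that did not were Pax3 regions 1, 3 and 4 and Olig1 region 1, and 3 of them are regions of the MEF list alone. The filter asks for a minimum count at the median depth in 3 libraries, and the deep MEF libraries meet it only at higher counts. Among the 19 tested, 16 were called higher and 1 lower in Stage 1 against MEF, where 40.2% and 40.3% of all tested regions were called in these directions, and 18 and 1 in iPSC against MEF (40.8% and 40.8%). Leaving out 1 library gave 2 lower in Stage 1 against MEF, except without MEF replicate 1 or 3, which gave 1. In iPSC against MEF it gave between 0 and 2 lower, with 0 without MEF replicate 1. The filter was applied anew in these fits, where the smallest group has 2 libraries, so the regions tested were not always the same 19. Pax3 region 3 was tested in 10 of them (-3.59 to -2.48 in Stage 1 against MEF). Among the 19, the lower one in iPSC against MEF was Pax6 region 4 (-0.65 ± 0.28, adjusted p = 0.0315). It did not pass in DESeq2 (0.259), without the filter (0.382), with the 2 groups alone (0.340) or without MEF replicate 1 (0.0548) or 2 (0.0644), Stage 1 replicate 1 (0.0501) or iPSC replicate 1 (0.113) or 3 (0.201). Without the filter 18 of 23 were called higher and 3 lower in Stage 1 against MEF, where 34.5% of all regions were called higher and 34.2% lower. The 3 lower ones were Pax3 region 1 (-2.87 ± 0.63, adjusted p = 2.93e-05), Pax3 region 3 (-2.67 ± 0.53, adjusted p = 4.74e-06) and Olig1 region 1 (-2.10 ± 0.86, adjusted p = 0.0239, or 0.0600 in DESeq2), while Pax3 region 4 had 1.35 ± 0.98 (adjusted p = 0.213). Unfiltered iPSC against MEF had 19 higher and 1 lower (32.5% and 28.8% of all regions). The lower one was Pax3 region 3 (-1.77 ± 0.45, adjusted p = 0.000303, edgeR). Neither Pax3 region 1 (-0.78 ± 0.43, adjusted p = 0.102) nor Olig1 region 1 (-0.27 ± 0.60, adjusted p = 0.712) was called. With scaling to all reads Pax3 region 1 was lower too (-2.49, adjusted p = 1.13e-07), where 67.6% of all regions were called lower. Between Stage 1 and Stage 2, 3 of 19 regions rose (6.14% of all tested regions, with 4.3% lower), the regions of Pax6 and Olig1 given above. Between Stage 2 and iPSC edgeR called none of 19, with 1 at an unadjusted p under 0.05 and none in DESeq2, against 0.545% of all tested regions called higher and 1.06% lower.

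Fewer members were called between later groups. In Stage 2 against Stage 1, 3 of 7 genes rose (Pax3, Pax6 and Olig1) where 8.25% of all genes were called higher and 7.56% lower, with a median log2 fold change of 0.61 over the members and 0.02 over all genes. In iPSC against Stage 2, 1 of 7 rose (5.59% of all genes were higher and 3.82% lower), with medians of 0.02 for both. Between the end points all 7 were higher in iPSC than in MEF (32.9% of all genes were higher and 32.2% lower), with log2 fold changes of 2.74 ± 0.24 for Sox1, 0.70 ± 0.18 for Pax3, 2.34 ± 0.11 for Pax6, 3.78 ± 0.43 for En2, 1.37 ± 0.29 for Olig1, 2.24 ± 0.30 for Olig2 and 2.78 ± 0.18 for Neurod1 (SE, adjusted p at most 0.000686). In iPSC against Stage 1 the test passed for Pax3, Pax6, Olig1 and Neurod1 (adjusted p at most 0.0164, where 14.6% of all genes were called higher) and not for Sox1, En2 and Olig2 (0.0548, 0.221 and 0.360). The comparisons share groups and are not independent of each other.

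**Figure D4:**
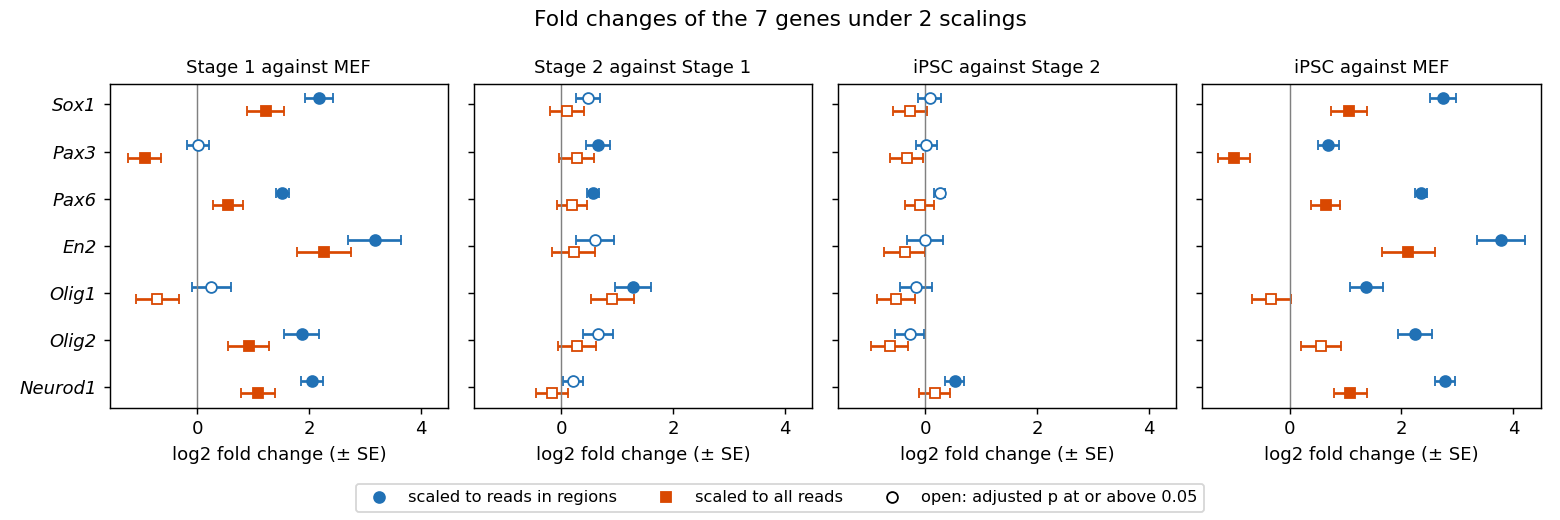
Log2 fold changes (± SE) of the 7 genes in 4 comparisons, scaled to reads in regions (circles) and to all reads of a library (squares). Filled symbols have an adjusted p under 0.05. The squares lie left of the circles throughout, Pax3 and Olig1 lie below 0 against MEF with all reads, and Sox1, Pax6, En2 and Neurod1 are filled and above 0 against MEF on both scales.

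These directions are relative to the reads in regions, whose share of a library was lower in each later group. With scaling to all reads of a library the log2 fold changes over all genes had a median of -0.96 in Stage 1 against MEF, -0.37 in Stage 2 against Stage 1, -0.33 in iPSC against Stage 2 and -1.71 in iPSC against MEF, where scaling to reads in regions gave 0.00, 0.02, 0.02 and -0.01. On that scale Sox1 (1.23 and 1.06), Pax6 (0.56 and 0.65), En2 (2.27 and 2.12) and Neurod1 (1.09 and 1.08) were called higher in Stage 1 and in iPSC against MEF, and Olig2 in Stage 1 (0.92) but not in iPSC (0.57, adjusted p = 0.124). Pax3 was called lower in both (-0.94 and -0.997), and Olig1 did not pass (-0.71 and -0.32). Of all genes 7.53% were then called higher and 69.8% lower in Stage 1 against MEF, and 4.48% higher and 86.5% lower in iPSC against MEF, so a lower call is the common state on this scale. No member passed in Stage 2 against Stage 1 or in iPSC against Stage 2 with all reads as the scale (0.348% and 0% of all genes were higher, 6.69% and 0.23% lower), where Olig1 had 0.91 (adjusted p = 0.114) and Neurod1 0.16 (adjusted p = 0.734). Of 20 regions tested on this scale 11 were higher and 3 lower in Stage 1 against MEF (22% and 60.2% of all regions), 11 and 3 in iPSC against MEF (17.2% and 67.6%), and 1 was higher in Stage 2 against Stage 1 (0.841%). Among the regions, Sox1 1 and 3, Pax6 6 and 7 and Neurod1 1 then lost their call in Stage 1 against MEF (adjusted p = 0.0703 to 0.479), and Pax6 region 6 and Olig1 region 2 lost theirs in Stage 2 against Stage 1 (0.151 and 0.207).

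Another reading that does not use the reads in regions is the ratio of reads to the background expected from the reads outside all regions. Summed per gene, this ratio for Sox1 stood at 1.74 (MEF), 3.72 (Stage 1), 3.89 (Stage 2) and 3.20 (iPSC). It was 0.874, 3.81, 4.40 and 3.40 for En2, 2.45, 4.22, 5.01 and 3.19 for Olig2 and 3.22, 6.19, 5.37 and 5.97 for Neurod1 in the same order. Pax6 stood at 3.41, 4.55, 5.04 and 4.67 and Olig1 at 3.49, 1.94, 3.53 and 2.46. Pax3 had its highest ratio in MEF, 3.42, with 1.61 (Stage 1), 1.91 (Stage 2) and 1.501 (iPSC) later. Background was taken as even outside the regions, which was not tested.

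Per kb of region, the order of the levels in iPSC was Neurod1 (44.1 CPM per kb), Pax6 (34.2), En2 (24.5), Sox1 (23.2), Olig2 (23.2), Olig1 (17.4) and Pax3 (11.1). In MEF all but Sox1 (3.78) and En2 (1.71) lay between 5.39 and 7.12 CPM per kb. Stage 1 had Neurod1 first at 26.5 CPM per kb, with Pax3 and Olig1 last at 6.95 and 7.92. These are levels between genes, and no test compared them.

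Promoter regions of the members were set beside all others. Over the whole set 9945 regions held at least 200 bases of an annotated promoter window, and 93.6% of these were in the MEF list. Of the 4 such regions of Sox1, Pax6, Olig2 and Neurod1, 0 were in that list. All 4 were called higher in Stage 1 against MEF, as were 20.1% of the 9733 tested regions of that kind. The 4 are in later lists alone, so a level above MEF is partly how they came to be counted. Most of the other regions are in the MEF list, so the sets are unlike and this is a description. For Pax6 this is region 2 (chr2:105668501-105668850), which covers 205 of the 300 bases of the first promoter window and gave 2.01 ± 0.38 (adjusted p = 1.86e-06).

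Other neural genes, from lists chosen by their known roles, were counted in the same fit, where 32.9% of all genes were called higher and 32% lower in Stage 1 against MEF. Of 29 patterning and progenitor homeobox and paired genes 21 were higher and 5 lower in Stage 1 than in MEF (median log2 fold change 1.17, or 0.21 with all reads as the scale), with Pax2 at 3.67 and Gsx2 at 2.67. Of 9 tested proneural and neuronal bHLH genes 7 were higher and 0 lower (median 1.31, or 0.35), with Olig3 at 5.76 and Neurod4 at 4.57. Of 13 other neural transcription factor genes 7 were higher and 3 lower, with a median of 0.45 that became -0.53 with all reads as the scale. Of 13 neural structural and signalling genes 6 were higher and 3 lower, with a median of 0.25 that became -0.70. Transcription factor genes of mesoderm and endoderm, as other lineages, were higher in 10 and lower in 2 of 18 cases (median 0.99, or 0.04), with T at 3.95 and Sox17 at 3.57. With all reads as the scale the higher and lower calls in the same order of lists numbered 7 and 7, 4 and 2, 3 and 6, 3 and 7, and 4 and 6 (of 20 then tested), where 7.53% of all genes were higher and 69.8% lower. Whether the neural lists differ from the list of other lineages was not tested. In Stage 2 against Stage 1 rises and falls numbered 6 and 0, 0 and 2, 4 and 1, 2 and 1 and 3 and 1 in these 5 lists in the same order. There 8.25% of all genes were called higher and 7.56% lower. In iPSC against Stage 2 the rises and falls numbered 2 and 0, 0 and 0, 1 and 2, 0 and 0 and 0 and 1. There 5.59% of all genes were called higher and 3.82% lower.

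The genes whose log2 level over the 12 libraries was most like that of a member were, by Pearson r among 16416 genes, Fam83h (0.991) and D930020B18Rik (0.986) for Sox1, Foxa1 (0.992) and Tmem163 (0.992) for Pax6, and Kcnt2 (0.992) and Cadm3 (0.992) for Neurod1. For En2 they were Twistnb (0.983) and Msc (0.975), and for Olig2 Cfc1 (0.979) and Prss40 (0.978). The closest genes to the other 2 members were less alike, Atp2b2 (0.939) and Trim36 (0.933) for Pax3 and Prune1 (0.969) and Cand2 (0.918) for Olig1. The points share libraries and depth, so this is a description.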

How the data were processed

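Chromatin accessibility was measured by ATAC-seq in 12 libraries, 3 in each of 4 groups taken from the labels. The authors deposited raw read counts for each of 115000 regions per library, with totals of reads in no region and of ambiguous reads (0.0311% to 0.230% of a library), which stayed out of library sizes except in whole-library scaling. Interval lists per stage, also deposited, were used by overlap of at least 1 base. Per the submitters' processing notes, the tools were HTSeq 0.5.4p3, SAMtools 0.1.19, DESeq2 1.12.4, Picard 2.6.0 and Bowtie2 2.2.6 and the build mm10, with no role stated. Peak calling, duplicate handling and read-end shifts are not given in the sources used here.

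Counts were tested as deposited with edgeR 4.0.16 (R 4.3.3): robust quasi-likelihood F tests, two-sided, TMM scaling, filterByExpr (minimum count 10, minimum total 15), 1 model of the 4 groups, and Benjamini-Hochberg adjustment over all 71069 regions or 17507 genes tested. A call is an adjusted p under 0.05. The SE is the log2 fold change over the square root of its F statistic. Gene sums used protein-coding genes of GRCm38.p6 and a 10 kb window. Expected background was the number of reads in no region over the length outside regions, with chromosome lengths taken up to the last annotated gene. Scripts were tested on simulated data. DESeq2 1.42.0, other scalings, filters, windows and left-out libraries were alternatives.

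All 7 members were named in every comparison. Named regions were those nearest a gene start, the 2 tested regions of a gene with most reads, and those called between later groups. Genes alike in pattern needed a mean of at least 10 CPM (log2 with prior count 2). The members and lists were chosen with earlier results of these data known. The labels name no animal or culture for a replicate, so a p-value reflects the spread among these libraries and this may be technical. A chi-square test of counts found all replicate pairs further apart than sampling noise (largest p = 0.000376, for Stage 1 replicates 2 and 3), so none were merged. Chi-square per degree of freedom was 2.07 and 2.14 for MEF replicate 1 against replicates 2 and 3, and 1.02 to 1.23 for all other pairs. The MEF libraries also had the most reads in regions, so these values are not at equal depth.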

Additional observations from a re-analysis of the deposited data

How the results depend on the processing

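The numbers of member genes called higher and lower in each comparison kept within 1.5 times the reported number under RLE scaling, no filter on low counts, a fit of the 2 groups alone, windows of 2 kb and 20 kb and the replicate block. En2 has no region within 2 kb and gave no value there. Whole-library scaling gave 1 gene lower in Stage 1 against MEF (69.8% of all genes). It gave 0 higher in Stage 2 against Stage 1 (0.348% of all genes) and 0 higher in iPSC against Stage 2 (0%). In iPSC against MEF it gave 4 higher and 1 lower (4.48% and 86.5% of all genes). In iPSC against Stage 2 the number higher was also 0 in DESeq2 (2% of all genes), with libraries thinned to equal depth and with regions of 1 gene only. With each library left out it was between 0 and 1 there, between 2 and 4 in Stage 2 against Stage 1, 5 in Stage 1 against MEF and 7 in iPSC against MEF. Regions called lower in Stage 1 against MEF numbered 2 in DESeq2 (31.3% of all regions) and 3 without the filter (34.2%). They also numbered 3 with whole-library scaling (60.2% of all regions) and with the 2 groups alone, where that share is not given here. Whole-library scaling gave 1 region higher in Stage 2 against Stage 1 (0.841% of all regions), and 11 higher and 3 lower in iPSC against MEF (17.2% and 67.6%). With each library left out the filter was applied anew, so the regions tested differ. Regions called higher then numbered 16 to 18 in Stage 1 against MEF, 2 to 4 in Stage 2 against Stage 1 and 17 to 19 in iPSC against MEF. Those called lower numbered 1 to 2 in Stage 1 against MEF and 0 to 2 in iPSC against MEF.

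Some fold changes turned sign. With whole-library scaling they were -0.94 for Pax3 and -0.71 for Olig1 in Stage 1 against MEF, -0.17 for Neurod1 in Stage 2 against Stage 1, -0.27 for Sox1, -0.34 for Pax3 and -0.10 for Pax6 in iPSC against Stage 2, and -0.997 for Pax3 and -0.32 for Olig1 in iPSC against MEF, where both had been called higher. With thinning they were -0.15 for Pax3 and -0.375 for Olig1 in Stage 1 against MEF, -0.052 for Pax3 in iPSC against Stage 2 and 0.12 for Pax6 region 4 in iPSC against MEF. The 20 kb window gave -0.16 for Pax3 in Stage 1 against MEF, while the 2 kb window gave 0.56 and 1.02 for Pax3 and Olig1, both called (adjusted p = 0.0177 and 0.0181, edgeR). In iPSC against Stage 2 the 2 kb window gave -0.063 for Sox1 and -0.046 for Pax3, and regions of 1 gene only gave -0.020 and -0.079. With each library left out Pax3 spanned -0.13 to 0.16 and Olig1 -0.0062 to 0.51 in Stage 1 against MEF, and in iPSC against Stage 2 Sox1 spanned -0.16 to 0.31, Pax3 -0.13 to 0.10, En2 -0.17 to 0.30 and Olig1 -0.46 to 0.092. Pax3 region 4, left out by the filter with all libraries, passed it in 10 of these fits and there spanned -0.15 to 2.42 in Stage 1 against MEF. The cause was not tested.

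Of 18 correlations of deviations between same-numbered libraries 1 exceeded 0.1 (-0.105 to 0.107), as did 3 of 36 between other-numbered libraries (-0.129 to 0.138). With 3 libraries a group this cannot tell whether same-numbered libraries share an animal or culture, and the labels do not say. With the replicate block 5, 3, 1 and 7 genes were higher and 0 lower in the 4 comparisons, as without it. For single genes and regions 637 leave-one-out values kept their direction and side of the threshold, 14 lost a call, 10 gained one and 13 changed sign, and 414, 23, 7 and 17 did so under the other settings. Depth limits the sums of Olig1, Olig2 and En2, with 15 or fewer reads in some libraries. Among single regions all but Pax6 region 3 and Neurod1 region 1 had 15 or fewer reads in some library, so depth limits their fold changes too.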
